A study of Mus musculus with 288 samples.

Results

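The 36 genes described here encode the extracellular matrix of the liver and the marker and receptor proteins of its hepatic stellate cells, and they were chosen by symbol from the 21869 genes counted in the series. All 36 were found, 34 carried enough reads to be tested, and Lox and Timp1 fell below the filter on low counts and are given apart. The counts came from polyA RNA of 288 livers of male C57BL/6J mice, all labelled wild type, individually housed with a running wheel. The groups were 19-month-old and 6-month-old mice under each of 6 feeding conditions, with 24 livers in each of the 12 groups. All CR mice were put on 70% of the ad libitum amount; the study states that AL mice ate more after their first year while CR rations were not raised, so that the restriction relative to AL was stronger at 19 months. CR-night-2h and CR-day-2h mice received their ration as a single meal that was eaten in under 2 h at the start of the dark or of the light phase. CR-night-12h and CR-day-12h mice received it as pellets of 300 mg given every 90 min over 12 h, CR-spread mice received a pellet every 160 min around the clock, and AL mice ate ad libitum. Livers were taken every 4 h from hour 0 to hour 44, with 2 mice, A and B, at each time; the study calls A and B biological replicates. According to the sample labels light and dark lasted 12 h each, whereas the headings of the count tables and the study give constant darkness during collection, and neither says to which phase hour 0 belongs.

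Stellate cells lie between the hepatocytes and the sinusoidal endothelium. In the resting state they store retinyl esters, and when activated they proliferate, take on a contractile form and lay down fibrillar collagen, which makes them the main source of scar in liver fibrosis. Portal fibroblasts, vascular smooth muscle and sinusoidal endothelial cells make part of the same matrix, and most of these transcripts are not made by stellate cells alone.

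Library totals ran between 2796688 and 18706281 reads, and the medians of the groups between 4866470 and 9417006. The 6-month CR groups had lower median totals than every 19-month group and than 6-month AL, and no sequencing dates are given, so that a batch and the age of the mice cannot be told apart. Totals also differed between the letters. In 6-month AL they were 6050026 to 8963043 in the A livers and 9870969 to 18706281 in the B livers. In 19-month AL they were 8911592 to 12585106 in the A livers and 6078926 to 9471604 in the B livers. Whether the letters were handled apart is not stated. Levels are given as CPM, read counts scaled to a library total of 1000000, and a gene is said to have risen, fallen or been called where edgeR's quasi-likelihood test gave a Benjamini-Hochberg adjusted p under 0.05 over the 12228 genes tested together with a fold change of at least 1.5. Differences are log2 values. The value after ± is the size of the difference divided by the square root of its F statistic, an approximate standard error that is unreliable for very small differences. In 8 CR livers the 34 genes lay, in the median, more than 1 log2 unit above the median of the liver's own group: 1 CR-night-2h, 1 CR-day-2h and 2 CR-day-12h livers at 19 months, and 2 CR-night-2h, 1 CR-day-2h and 1 CR-day-12h livers at 6 months. No AL, CR-spread or CR-night-12h liver lay that far above its group, but some livers fell just short of the cut. The 19-month CR-spread liver 12B (hour 12, mouse B) deviated by 0.96. The 19-month CR-day-2h liver 36A and the 6-month CR-night-2h liver 12A deviated by 0.92 each. None of them was left out alone in any comparison. The lowest liver of all, a 19-month AL liver, deviated by -0.99. These 8 livers are described after the comparisons, and counts that depend on them are given with and without them.

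Promoters of 4 of these genes are shown from the RefSeq table of mouse build GRCm38.p6, which held an entry for 24 of the 36. Col3a1 is shown as a fibrillar collagen of the main comparison, Lamb1 as a basement membrane gene, and Col15a1 and Timp3 for their levels over the day. Each stretch holds 130 bases on the plus strand and ends at the last base before the annotated transcripts begin. The windows are chr1:45311408-45311537 (Col3a1), chr12:31265104-31265233 (Lamb1), chr4:47207882-47208011 (Col15a1) and chr10:86300242-86300371 (Timp3). Capitals mark a CCAAT box, a TATA box with the letters TATAAA, a GC box with the letters GGGCGG or an E-box with the letters CACGTG, each read on both strands; no marked letters belong to more than 1 motif.
Col3a1: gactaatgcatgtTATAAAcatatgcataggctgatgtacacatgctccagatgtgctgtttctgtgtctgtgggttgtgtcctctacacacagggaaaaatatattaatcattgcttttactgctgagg
Lamb1: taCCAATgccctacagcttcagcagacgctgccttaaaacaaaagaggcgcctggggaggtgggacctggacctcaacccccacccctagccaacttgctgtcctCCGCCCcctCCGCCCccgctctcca
Col15a1: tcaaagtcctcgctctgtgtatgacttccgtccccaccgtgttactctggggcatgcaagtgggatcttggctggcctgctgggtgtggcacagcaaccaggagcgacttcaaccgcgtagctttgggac
Timp3: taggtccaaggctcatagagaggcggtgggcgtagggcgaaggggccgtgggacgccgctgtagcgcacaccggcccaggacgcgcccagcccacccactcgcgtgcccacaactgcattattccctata
Col3a1 held a TATAAA, Lamb1 a CCAAT and the reverse complement of GGGCGG at 2 places, and the other stretches held none of the 4. Over the 250 bases before the start, CCAAT was found in 9 of the 24 genes, against 33.8% of the 32851 promoters of the table. Here and below a gene counted where any of its promoters in the table held the motif. The shares are over single promoters, so that the units differ. GGGCGG was found in 14 of the 24, against 32.7% of all. TATAAA was found in 2, against 12.4%, and CACGTG in Reln alone, against 6.02%. Col4a1 and Col4a2, the paired chains of collagen IV, are transcribed away from each other on chromosome 8 from starts only 21 bases apart (11312826 for Col4a1 and 11312805 for Col4a2).

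Under ad libitum feeding most of the matrix genes were more abundant in the 19-month livers than in the 6-month livers. Of the 34 tested genes 23 rose and 0 fell, against 10.8% of all genes called higher and 4.47% called lower. The genes were chosen with earlier results of these data known, so that this contrast is a description. All 34 fitted differences were above 0. Their median was 0.67 log2, against -0.01 over all genes tested. In whole liver, a change in the number of cells of a type and a change in RNA per cell cannot be told apart. The genes that rose spanned the fibrillar collagens, collagen VI, the small proteoglycans, the tissue inhibitors of metalloproteinases and the retinol-esterifying enzyme of stellate cells. Of the basement membrane genes only Col4a1 was called.

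**Figure D1:**
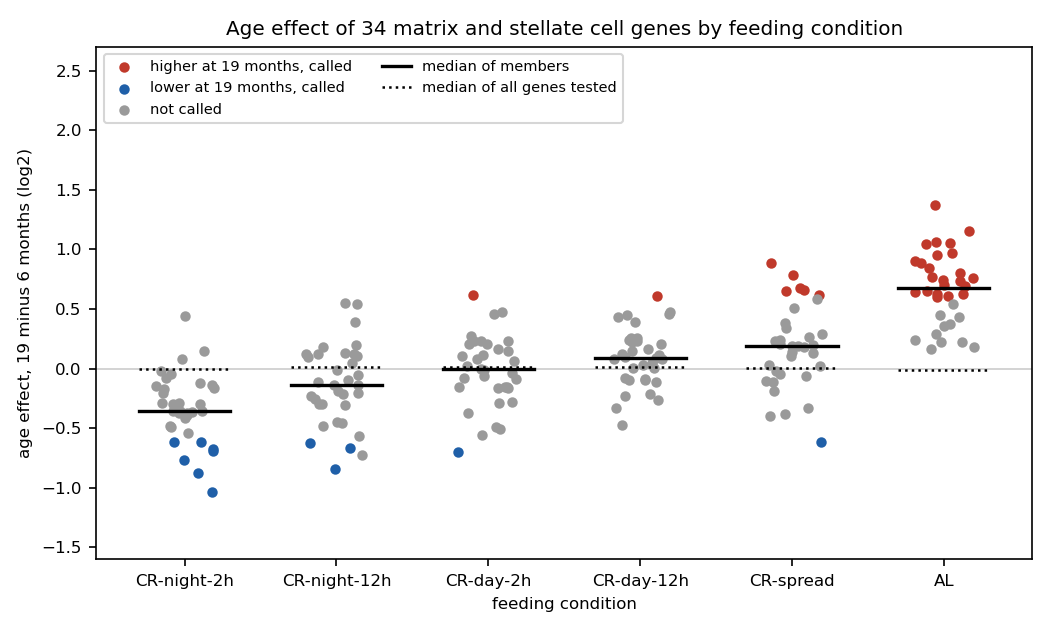
Each point is the age effect (19 minus 6 months, log2) of 1 of the 34 tested genes under a feeding condition. Red points were called higher, blue points lower and grey points were not called; solid bars mark the median of the 34 genes and dotted bars that of all genes tested. The median runs between -0.36 in CR-night-2h and 0.67 in AL.

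Fibrillar collagens form the tensile fibres of connective tissue, and types I and III are the collagens that accumulate in scar. Col1a1, the alpha 1 chain of type I, had 1.77, 18.6 and 45.7 CPM (lowest, median and highest of 24 livers, here and below) in 19-month AL livers and 3.88, 7.21 and 23.5 CPM in 6-month AL livers. The difference was 1.37 ± 0.29 log2 (adjusted p = 2.1e-05), and 22 of 24 old livers lay above the young median, although the lowest old liver lay below every young one. Its partner Col1a2 had 5.55, 24.1 and 48.3 CPM at 19 months and 7.87, 11.5 and 23.7 CPM at 6 months, a difference of 0.97 ± 0.19 (adjusted p = 3.6e-06). Col3a1, the type III chain, had 13.0, 59.2 and 110.3 CPM at 19 months and 14.0, 25.8 and 50.5 CPM at 6 months, a difference of 1.15 ± 0.22 (adjusted p = 2.1e-06), and 17 of 24 old livers exceeded all young livers. Type V collagen sets the diameter of the fibrils, and 1 of its 2 chains listed here was called. Col5a2 rose by 1.05 ± 0.21 log2 (adjusted p = 6.2e-06), with medians of 5.67 and 2.59 CPM at 19 and 6 months. For Col5a1 the difference was 0.18 ± 0.11 (adjusted p = 0.18).

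Basement membrane genes moved less. Col4a1 had 14.3, 36.8 and 56.2 CPM at 19 months and 9.58, 22.9 and 34.6 CPM at 6 months (0.64 ± 0.15, adjusted p = 1.4e-04). Col4a2, which starts beside it, had medians of 19.8 and 15.3 CPM at 19 and 6 months and a difference of 0.22 ± 0.15 (adjusted p = 0.21). The ranges of both genes overlapped between the ages. Lamb1, a laminin beta chain, differed by 0.54 ± 0.12 (adjusted p = 6.0e-05) and so passed on p but not on fold change, with medians of 13.8 CPM at 19 months and 8.62 CPM at 6 months. Col15a1, a collagen that links basement membrane to the stroma below, differed by 0.38 ± 0.17 (adjusted p = 0.058) and Lama2, a laminin alpha chain, by 0.36 ± 0.18 (adjusted p = 0.090).

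Collagen VI makes beaded filaments around cells, and its 3 chains rose together. Col6a3 had 5.80, 22.2 and 38.8 CPM at 19 months and 6.37, 9.87 and 16.3 CPM at 6 months (1.06 ± 0.19, adjusted p = 5.9e-07), and 19 of 24 old livers lay above all young ones. Col6a1 had 6.10, 15.0 and 23.2 CPM at 19 months and 6.07, 9.01 and 16 CPM at 6 months (0.74 ± 0.14, adjusted p = 3.8e-06). Col6a2 rose by 0.76 ± 0.17 (adjusted p = 5.6e-05). Of the collagens that sit on the surface of fibrils, Col12a1 rose, with 0.505, 3.18 and 7.21 CPM at 19 months and 0.855, 1.80 and 3.69 CPM at 6 months (0.88 ± 0.18, adjusted p = 7.0e-06). Col14a1 differed by 0.44 ± 0.10 (adjusted p = 4.6e-05), short of the fold change required, with medians of 75.9 and 53.3 CPM.

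The small leucine-rich proteoglycans bind collagen fibrils and growth factors, and all 3 of them rose. Dcn (decorin) had 177, 259 and 348 CPM at 19 months and 105, 140.5 and 173 CPM at 6 months, so that every old liver lay above every young one (0.90 ± 0.08, adjusted p = 9.6e-23). Bgn (biglycan) had 113, 162 and 264 CPM at 19 months and 56.2, 91.6 and 146 CPM at 6 months (0.80 ± 0.10, adjusted p = 1.3e-12), with 18 of 24 old livers above all young ones. Lum (lumican) rose by 0.95 ± 0.18 (adjusted p = 1.9e-06) and Sparc, a collagen-binding matricellular protein, by 0.60 ± 0.11 (adjusted p = 9.2e-07). Per kilobase of exon (GENCODE M21), Dcn, Bgn and Sparc had the highest levels of the genes with a known length. Dcn had a median of 44.4 CPM per kb in 19-month and 24.1 in 6-month AL livers, Bgn 26.5 and 15.0, and Sparc 14.4 and 10.2. Col3a1 had 6.03 and 2.63 on the same scale, below Lrat at both ages.

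Among the elastic fibre genes, Fbn1 (fibrillin-1, the microfibril scaffold) had 1.89, 6.14 and 10.8 CPM at 19 months and 1.39, 3.30 and 6.61 CPM at 6 months (0.85 ± 0.18, adjusted p = 1.5e-05). Loxl1, which crosslinks elastin, was low, with 0.252, 1.96 and 4.56 CPM at 19 months and 0.592, 1.21 and 2.94 CPM at 6 months (0.65 ± 0.25, adjusted p = 0.022). Those ranges overlapped almost completely. Eln (elastin) differed by 0.29 ± 0.25 (adjusted p = 0.34) and Fbln5, which brings elastin to microfibrils, by 0.17 ± 0.13 (adjusted p = 0.29). Lox, the enzyme that crosslinks collagen, never exceeded 1.19 CPM in an AL liver and was not called without the filter either (0.75 ± 0.36, adjusted p = 0.10).

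Genes of matrix breakdown and of its inhibition rose side by side. Mmp2, a gelatinase, rose by 1.06 ± 0.24 (adjusted p = 8.9e-05), with medians of 4.47 CPM at 19 months and 2.09 CPM at 6 months. Timp3, the inhibitor that stays bound to the matrix, had 32.3, 54.1 and 81.8 CPM at 19 months and 15.8, 30.5 and 62.6 CPM at 6 months (0.70 ± 0.14, adjusted p = 3.7e-06). Timp2 had 12.9, 23.7 and 35 CPM at 19 months and 11.5, 15.4 and 21.8 CPM at 6 months (0.62 ± 0.12, adjusted p = 1.5e-06). For Timp3 all 24 old livers lay above the young median, but the ranges overlapped. Timp1, the inducible inhibitor, had 0, 0.682 and 2.66 CPM at 19 months and 0, 0.0804 and 0.625 CPM at 6 months, and 3 old and 7 young AL livers held no read of it. Tested without the filter on low counts, it was higher at 19 months (2.71 ± 0.44, adjusted p = 5.1e-08).

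Vim (vimentin), the filament of mesenchymal and immune cells alike, had 19.2, 28.6 and 42.9 CPM at 19 months and 13.0, 17.7 and 23.5 CPM at 6 months (0.77 ± 0.12, adjusted p = 1.1e-08). Tagln (transgelin), an actin-binding protein of smooth muscle, had 2.19, 4.98 and 8.46 CPM at 19 months and 1.76, 2.86 and 5.11 CPM at 6 months (0.74 ± 0.15, adjusted p = 1.2e-05). Acta2, smooth muscle actin and the usual mark of an activated stellate cell, was low, with 0.821, 1.93 and 4.82 CPM at 19 months and 0.364, 1.35 and 2.63 CPM at 6 months (0.61 ± 0.21, adjusted p = 0.0093). Des (desmin), a stellate cell marker in rodents, differed by 0.24 ± 0.11 (adjusted p = 0.064). The PDGF receptors carry the main growth signal of stellate cells. Pdgfra had 5.44, 10.4 and 18.4 CPM at 19 months and 4.36, 6.66 and 9.49 CPM at 6 months (0.63 ± 0.13, adjusted p = 1.4e-05). Pdgfrb had 6.90, 14.5 and 26.2 CPM at 19 months and 6.62, 11.5 and 19.1 CPM at 6 months (0.45 ± 0.14, adjusted p = 0.0037) and missed the fold change. Lrat, which esterifies retinol for storage and is a mark of the resting cell, was higher at 19 months too, with 14.0, 34.8 and 56.8 CPM, against 14.7, 21.1 and 29.8 CPM at 6 months (0.70 ± 0.11, adjusted p = 3.7e-09). Reln (reelin), another stellate cell transcript, differed by 0.22 ± 0.09 (adjusted p = 0.033). The genes that were not called in AL were therefore Col5a1, Col4a2, Col15a1, Lama2, Lamb1, Col14a1, Eln, Fbln5, Des, Pdgfrb and Reln.

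Other lists were read in the same AL comparison. Across all genes 10.8% were called higher and 4.47% lower, as given above. Of the stellate cell list 3 of 14 tested genes rose (median 0.21), with Cygb (cytoglobin) at 0.88 ± 0.13 (adjusted p = 1.7e-09). Of the portal fibroblast list 3 of 5 rose (median 0.91), with Gas6, a TAM receptor ligand, at 1.32 ± 0.14 and Dpt (dermatopontin) at 0.91 ± 0.17 (adjusted p = 6.3e-16 and 2.9e-06). Only 5 of the 10 portal fibroblast genes found were tested. The summed level of all 10 had medians of 100.6 CPM at 19 months and 41.8 CPM at 6 months. That of the 15 stellate cell genes found had medians of 270 and 240 CPM. Of the TGF-beta pathway, the main profibrotic signal, 2 of 20 rose (median 0.11), with Ltbp1, the latent TGF-beta binding protein, at 0.96 ± 0.16 (adjusted p = 2.5e-08). Of the PDGF ligands 1 of 4 rose, Pdgfd at 0.68 ± 0.20 (adjusted p = 0.0019). Of the collagen synthesis enzymes 4 of 14 rose and 1 fell, the procollagen C-proteinase gene Bmp1 at -0.64 ± 0.10 (adjusted p = 5.4e-09). Of the integrin receptors 3 of 14 rose, among them Itga8, the alpha 8 chain, at 1.03 ± 0.21 (adjusted p = 7.1e-06). Of the matrix proteases 5 of 9 rose and 1 fell, with Mmp12, the macrophage elastase, at 4.30 ± 0.44 (adjusted p = 2.2e-17). Only 9 of the 18 genes found were tested. The summed level of all 18 was not higher with age, with medians of 164 CPM at 19 months and 172 CPM at 6 months. Of other matrix glycoproteins 5 of 24 rose and 1 fell: Nid1 (nidogen-1), a basement membrane linker, rose by 1.33 ± 0.16 and Vtn (vitronectin), a plasma protein made by hepatocytes, fell (-0.60 ± 0.07; adjusted p = 1.1e-13 and 3.2e-15).

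Markers of other cell types moved with age in AL as well. Of the Kupffer and macrophage list 14 of 18 genes rose (median 0.95), and the summed level of the list was 263 to 1102 CPM at 19 months and 142 to 418 CPM at 6 months. Of the cholangiocyte list 4 of 7 rose, with a sum of 5.05 to 33.7 CPM at 19 months and 6.23 to 23.2 CPM at 6 months. Of the vascular smooth muscle, mesothelial and sinusoidal endothelial lists 1 gene each rose, of 6, 6 and 15 tested. Of the hepatocyte list 3 of 10 fell, of the adipocyte list none of 2 was called, and of the erythrocyte list 3 of 5 rose and 1 fell. Of the pancreas acinar list the 1 tested gene fell, and 5 of its 9 genes held no read in any 19-month AL liver. No defining marker of the other cell types was at 0 throughout an AL group. The part of these cell types in the matrix gene result was not tested.

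Under caloric restriction fewer of these genes were called with age, and in the night-fed groups those called were lower at 19 months. In CR-spread 6 of 34 rose and 1 fell, against 5.53% and 2.98% of all genes. The genes that rose were Col3a1 (0.88), Col12a1 (0.78), Mmp2 (0.68), Tagln (0.66), Acta2 (0.66) and Lum (0.62), and Col4a2 fell (-0.61). Timp1, tested without the filter, was called higher in CR-spread as well (2.83 ± 0.61, adjusted p = 1.0e-04) and in no other CR condition. In CR-day-12h Lum was called higher (0.61), a call lost with the replicate block, with thinned counts, without the B livers, without the 8 livers and in hours 24 to 44 alone, and 0 genes fell, against 5.22% and 1.46%. In CR-day-2h Col3a1 rose (0.62) and Col4a2 fell (-0.70), against 5.71% and 3.52%. In CR-night-12h none rose and Col4a2 (-0.84), Loxl1 (-0.67) and Lama2 (-0.62) fell, against 4.54% and 3.18%. In CR-night-2h none rose and 7 fell, against 2.09% and 2.40%. The medians of the 34 genes were 0.19, 0.09, -0.01, -0.14 and -0.36 in the same order, beginning with CR-spread and ending with CR-night-2h.

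**Figure D2:**
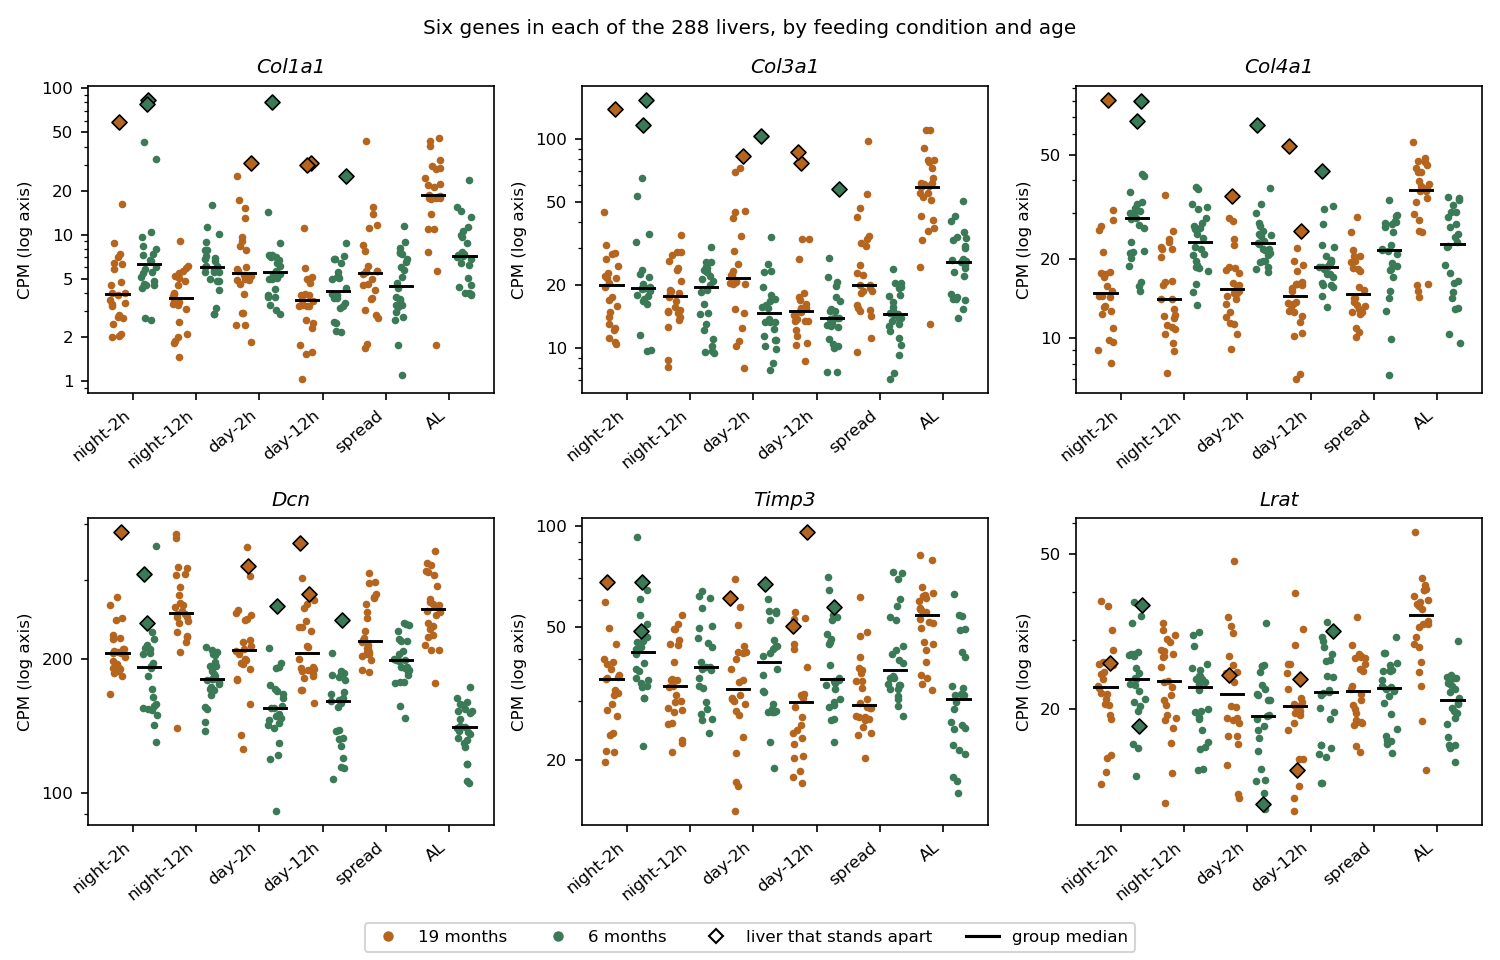
CPM on a log axis of Col1a1, Col3a1, Col4a1, Dcn, Timp3 and Lrat in each liver, by feeding condition, with 19-month livers (brown) left of 6-month livers (green). Bars mark group medians and diamonds the 8 livers that stand apart. In AL the 19-month median exceeds the 6-month median for all 6 genes; the diamonds carry the highest Col1a1 levels of their groups.

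Of the 7 genes lower at 19 months in CR-night-2h, Col1a1 had 2.01, 3.94 and 59.2 CPM at 19 months and 2.63, 6.30 and 83.2 CPM at 6 months (-1.03 ± 0.30, adjusted p = 0.0037). The highest liver of each group is among the 8 set apart. Col4a1 had 8.04, 14.8 and 81.0 CPM at 19 months and 15.2, 28.6 and 80.2 CPM at 6 months (-0.68 ± 0.16, adjusted p = 2.1e-04), and Col4a2 differed by -0.87 ± 0.15 (adjusted p = 1.1e-06). Col6a3 (-0.62), Col5a2 (-0.61), Loxl1 (-0.69) and Eln (-0.77) were the other 4. Without the 8 livers, 5 genes fell in this comparison and Acta2 rose. With the 6-month livers 08A (hour 8, mouse A) or 24B left out alone, 3 or 2 fell, and with the 19-month liver 28B left out 11 fell. Of the other age comparisons, leaving out CR-day-12h liver 00B or 12B at 19 months ended the call on Lum, and leaving out CR-day-12h liver 40B at 6 months gave 3 calls.

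The difference in the age effect between each CR condition and AL was tested itself. All 5 tests share the AL livers. The age effect was lower than in AL for 11 of 34 genes in CR-spread, 12 in CR-day-12h, 18 in CR-day-2h, 22 in CR-night-12h and 28 in CR-night-2h, and higher for none. Of all genes, 8.01%, 5.24%, 7.84%, 7.94% and 12.0% were called lower in these comparisons, in the same order, and 4.06%, 3.12%, 4.77%, 3.88% and 5.18% higher. The medians were -0.46, -0.58, -0.64, -0.76 and -0.96. Each such difference holds the CR minus AL difference at 6 months as well as that at 19 months. In CR-night-2h the median of each role lay above AL at 6 months and below AL at 19 months. At 6 and 19 months it was 0.27 and -1.19 for the fibrillar collagens and 0.50 and -0.45 for the proteoglycans and Sparc. For the elastic fibre genes it was 0.64 and -0.36. Without the 8 livers the counts of genes called for a different age effect were 13, 21, 17, 22 and 28. Without CR-day-2h liver 20A at 6 months alone, the count in CR-day-2h was 9, and without CR-day-12h liver 00B at 19 months that in CR-day-12h was 19. The counts also differed between the days of collection: with hours 0 to 20 alone they were 6, 1, 14, 15 and 27, and with hours 24 to 44 alone 7, 19, 1, 13 and 17. With the A livers left out the counts were 8, 6, 13, 12 and 16, and with the B livers left out 11, 5, 10, 18 and 29. Each of these subsets holds fewer livers, and the shares of all genes called in them are not given here.

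In CR-night-2h the fibrillar collagens had some of the largest differences from AL. It was -2.41 ± 0.42 for Col1a1 (adjusted p = 4.9e-07), -1.66 ± 0.30 for Col5a2 (adjusted p = 2.0e-06), -1.51 ± 0.31 for Col3a1 (adjusted p = 2.4e-05) and -1.46 ± 0.27 for Col1a2 (adjusted p = 3.0e-06). Median levels of Col1a2 were 7.90 CPM in 19-month and 10.51 CPM in 6-month CR-night-2h livers, of Col3a1 20.002 and 19.3 CPM, and of Col5a2 2.20 and 2.55 CPM. None of those medians reached that of 19-month AL livers. Without the 8 livers the Col1a1 difference was -2.26 and that of Col3a1 -1.35.

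Collagen VI, collagen XII and the basement membrane genes followed. Col6a3 differed by -1.68 ± 0.27 (adjusted p = 9.4e-08), with CR-night-2h medians of 7.90 CPM at 19 months and 11.4 CPM at 6 months. Col6a2 differed by -1.30 ± 0.25 and Col6a1 by -1.15 ± 0.21 (adjusted p = 4.4e-06 and 1.2e-06), with 19-month and 6-month medians of 4.66 and 5.55 CPM for Col6a2 and of 8.60 and 10.2 CPM for Col6a1. Col12a1 differed by -1.05 ± 0.27 (adjusted p = 7.4e-04; medians 1.22 and 1.52 CPM). Both collagen IV chains, which were lower in old than in young CR-night-2h livers, were among them. Col4a1 differed by -1.32 ± 0.22 (adjusted p = 1.3e-07) and Col4a2, with medians of 9.95 and 21.5 CPM, by -1.09 ± 0.21 (adjusted p = 9.5e-06). Col15a1 differed by -0.86 ± 0.25 (adjusted p = 0.0034; medians 7.90 and 11.1 CPM), Lamb1 by -0.75 ± 0.17 (adjusted p = 2.3e-04; medians 9.36 and 9.62 CPM) and Lama2 by -0.72 ± 0.27 (adjusted p = 0.023; medians 2.04 and 2.30 CPM).

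The proteoglycans were not called with age in CR-night-2h (Dcn 0.15, Bgn -0.16). Dcn had 167, 206 and 384 CPM at 19 months and 131, 192 and 358 CPM at 6 months, and its age effect differed from that in AL by -0.75 ± 0.11 (adjusted p = 3.6e-09). Of 24 old livers 1 lay above all young ones here, against 24 in AL, 22 in CR-night-12h, 9 in CR-spread, 6 in CR-day-12h and 3 in CR-day-2h. This count rests on the highest young liver of each condition, and the 1 old liver here is 28B, which stands apart. Above the young median lay 17 old livers in CR-night-2h and 24 in AL. In CR-night-12h, CR-spread, CR-day-12h and CR-day-2h they were 23, 21, 23 and 22. Bgn differed by -0.96 ± 0.14 (adjusted p = 2.7e-09; medians 109 and 125 CPM), Lum by -0.97 ± 0.26 (adjusted p = 0.0012; medians 8.14 and 7.34 CPM) and Sparc by -0.96 ± 0.16 (adjusted p = 9.3e-08; medians 33.7 and 43.9 CPM). Of the elastic fibre genes, Loxl1 differed by -1.34 ± 0.37 (adjusted p = 0.0016; medians 1.03 and 1.36 CPM), Fbn1 by -1.22 ± 0.25 (adjusted p = 3.0e-05; medians 3.10 and 4.07 CPM) and Eln by -1.05 ± 0.36 (adjusted p = 0.012; medians 1.77 and 2.55 CPM).

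The same direction was seen in the remaining roles. Mmp2 differed by -1.45 ± 0.35 (adjusted p = 3.7e-04; CR-night-2h medians 1.746 CPM at 19 months and 2.42 CPM at 6 months). Timp3 differed by -0.995 ± 0.19 (adjusted p = 8.7e-06; medians 35 and 42.1 CPM) and Timp2 by -0.76 ± 0.17 (adjusted p = 8.1e-05; medians 15.8 and 17.1 CPM). Both receptors were called, Pdgfra at -0.93 ± 0.19 (adjusted p = 1.4e-05; medians 8.29 and 10.3 CPM) and Pdgfrb at -0.82 ± 0.20 (adjusted p = 3.9e-04; medians 8.62 and 11.6 CPM). Tagln differed by -0.79 ± 0.22 (adjusted p = 0.0021; medians 3.45 and 3.63 CPM), Lrat by -0.78 ± 0.15 (adjusted p = 8.0e-06; medians 22.8 and 23.97 CPM) and Vim by -0.69 ± 0.17 (adjusted p = 5.7e-04; medians 20.1 and 16.6 CPM). Not called were Col5a1 (-0.47), Col14a1 (-0.55), Fbln5 (-0.31), Acta2 (-0.17), Des (-0.54) and Reln (-0.58). Without the filter, Timp1 (-3.11 ± 0.70, adjusted p = 1.8e-04) and Lox (-1.57 ± 0.53, adjusted p = 0.019) were lower too. Timp1 held no read in 16 of 24 CR-night-2h livers at 19 months and 13 of 24 at 6 months.

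Across the other CR conditions the differences from AL ran alongside these values. For Col1a1 they were -0.79 in CR-spread (not called), -1.21 in CR-day-12h, -1.46 in CR-day-2h and -2.10 in CR-night-12h. For Col4a1 they were -1.03, -0.97, -1.20 and -1.21 in the same order, all called. Timp3 had -1.11, -0.93, -0.86 and -0.91 and Pdgfra -0.75, -0.62, -0.63 and -0.74, also all called. Acta2 was called in none, with 0.04, -0.16, -0.39 and -0.07. Timp1, tested without the filter, had 0.12 in CR-spread (adjusted p = 0.97), -1.73 in CR-day-12h (adjusted p = 0.17) and -2.13 in CR-night-12h (adjusted p = 0.073). It was called lower in CR-day-2h (-2.16, adjusted p = 0.022).

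At 19 months many of the matrix genes were lower in each CR condition than in AL. The comparisons share the AL livers. Of the 34 genes, 17 were called lower in CR-spread, 21 in CR-day-12h, 11 in CR-day-2h, 22 in CR-night-12h and 16 in CR-night-2h, and none higher. Of all genes 7.82%, 6.92%, 5.77%, 8.91% and 8.04% were called lower in the same order, and 2.18%, 2.62%, 3.10%, 3.57% and 3.51% higher. Col1a1 and Col3a1 were among the genes that differed most. The difference of Col1a1 was -2.42 ± 0.31 in CR-night-12h (adjusted p = 1.1e-11), where its lowest, median and highest levels were 1.46, 3.69 and 9.07 CPM, and -1.34 to -1.82 in the other conditions. Col3a1 had 8.09, 17.7 and 34.6 CPM in CR-night-12h livers at 19 months, and its difference from AL was -1.65 ± 0.22 (adjusted p = 1.1e-10). Col12a1 differed by -1.51 ± 0.19 in the same comparison (adjusted p = 3.1e-12).

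Some genes that had not been called with age in AL were lower in CR all the same. Col15a1 differed by -0.75, -0.81, -0.95, -0.69 and -0.97, in the order just given and called in each. Col4a2 was called in each but CR-night-2h, with -0.84, -0.78, -0.63 and -0.88. The genes with the clearest age difference in AL were not called here. Dcn differed by -0.16, -0.24, -0.26, 0.01 and -0.27, and Bgn by -0.26 to -0.44. Pdgfra, Acta2, Des, Reln, Eln, Fbln5, Lamb1 and Timp2 were not called in any of the 5 either. Lrat was called in CR-day-12h (-0.70 ± 0.11, adjusted p = 1.2e-08) and lay at -0.51 to -0.57 in the others. Timp1, tested without the filter, differed by -1.03, -1.84, -1.52, -2.29 and -2.08, all called lower, and Lox was called lower in CR-night-12h (-1.28). The Kupffer and macrophage list was lower with the matrix genes, 15 of 18 in CR-night-12h (with 1 higher) and 14 of 18 in CR-night-2h, while 4 of 10 hepatocyte genes were higher in each; their part was not tested. With the A livers left out, 4 genes were lower in CR-spread, 4 in CR-day-12h and 2 in CR-night-2h (with 1 gene higher), whereas without the B livers the counts were 22, 24 and 25. Without the 8 livers that stand apart they were 17, 24 and 21. The letter subsets hold fewer livers, and the shares of all genes called under these alternatives are not given here.

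**Figure D3:**
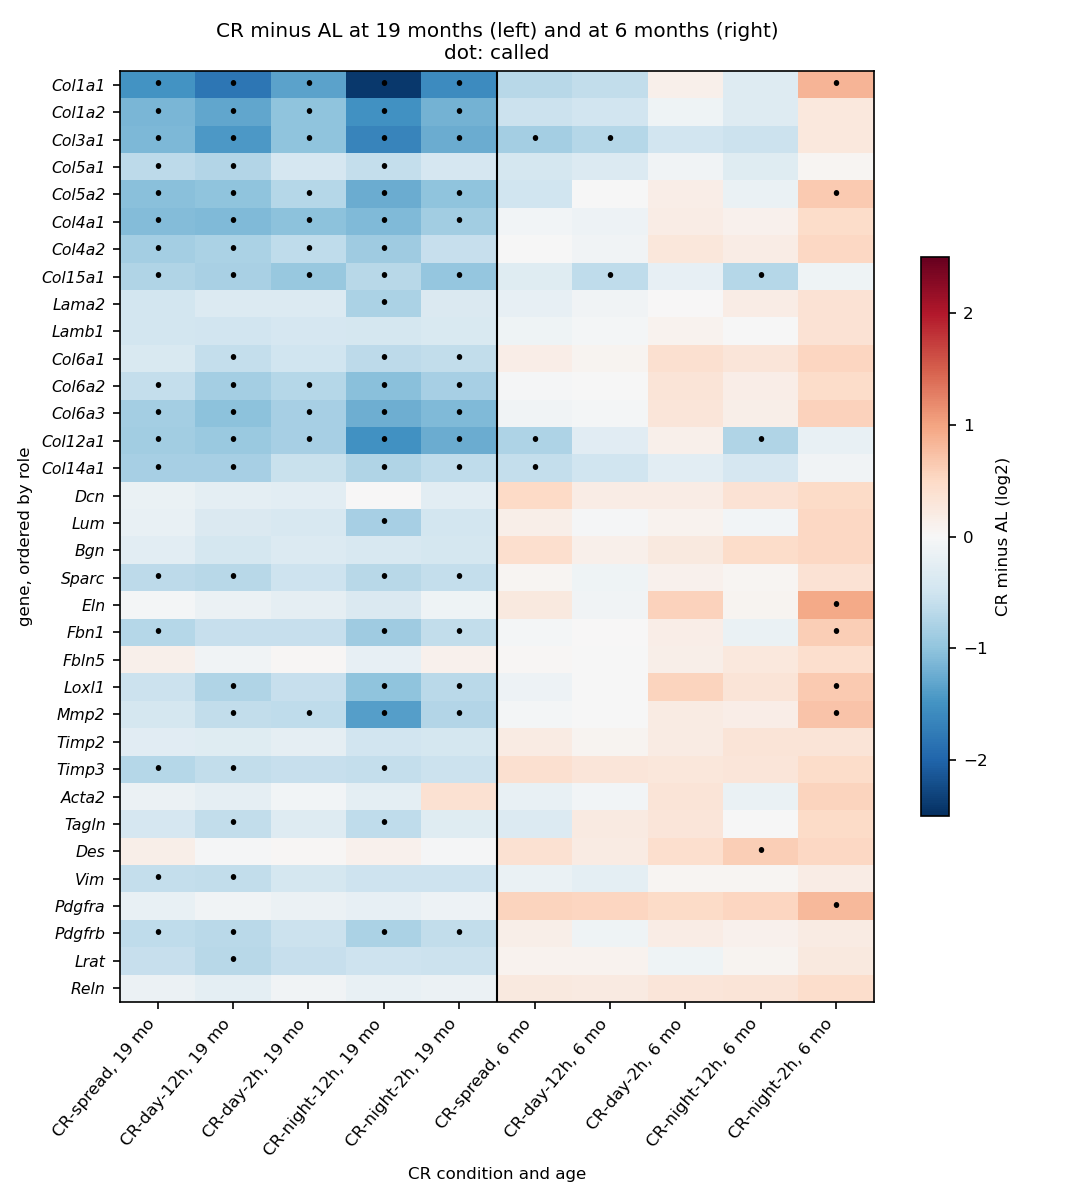
Colour gives CR minus AL (log2) of each tested gene (rows, by role) in the 5 CR conditions at 19 months (left) and at 6 months (right); a dot marks a called difference. The left side has 11 to 22 genes called lower per condition, and the right side 0 to 3, with 7 called higher in CR-night-2h and 1 in CR-night-12h.

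At 6 months few of the matrix genes were called between CR and AL livers. CR-spread had 3 genes lower (Col3a1 -0.86, Col12a1 -0.77, Col14a1 -0.59), CR-day-12h 2 (Col3a1 -0.72, Col15a1 -0.64; 4 without liver 40B), and CR-night-12h 2 lower (Col12a1 -0.76, Col15a1 -0.71) and 1 higher (Des 0.61). The shares of all genes called lower and higher were 3.90% and 3.57% in CR-spread, 3.93% and 2.60% in CR-day-12h and 3.47% and 3.16% in CR-night-12h. CR-day-2h had no called gene by edgeR or DESeq2, and 1 called lower without liver 20A, against 3.79% and 4.37% of all genes called lower and higher. In that comparison 11 genes had an unadjusted p under 0.05, a threshold at which the share of all genes is not given here. In CR-night-2h 7 genes were higher and none lower, against 4.84% and 2.37% of all genes. They were Eln (0.95), Col1a1 (0.84), Pdgfra (0.80), Mmp2 (0.72), Loxl1 (0.66), Col5a2 (0.65) and Fbn1 (0.61), and Lox, tested without the filter, was higher as well (1.03). Without the 8 livers that stand apart only Pdgfra stayed called (0.67, adjusted p = 1.3e-07), and Col1a1 was at 0.11. Leaving out liver 08A or liver 24B alone gave 2 and 2 calls. Pdgfra had 6.76, 10.3 and 31.6 CPM in CR-night-2h and 4.36, 6.66 and 9.49 CPM in AL at 6 months.

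Between sets of CR conditions few genes differed. The 4 conditions with a daily fast were compared with CR-spread, in which food came around the clock, at equal intake. At 19 months no gene was called by edgeR or by DESeq2, with 2 genes at an unadjusted p under 0.05 and 2 called lower without the 8 livers, against 0.491% of all genes higher and 0.278% lower. At 6 months Col5a2 was higher with a fast (0.66 ± 0.20, adjusted p = 0.016), against 0.605% of all genes higher and 0.237% lower, and without liver 40B of CR-day-12h, without liver 24B of CR-night-2h or without the 8 livers it was not, whereas without CR-night-2h liver 28B at 19 months 2 genes were called. The age effect was lower with a fast for Col12a1 (-0.75 ± 0.23, adjusted p = 0.044) and Tagln (-0.64 ± 0.19, adjusted p = 0.034), against 0.482% of all genes lower and 0.343% higher; without the 8 livers 5 genes were, without CR-night-2h liver 28B at 19 months 4, and without CR-day-12h liver 40B or CR-night-2h liver 24B at 6 months 1. Timp1, tested without the filter, was called lower too (-2.40 ± 0.69, adjusted p = 0.049). Col12a1 rose with age in CR-spread and lay at 0.24, -0.08, 0.13 and -0.17 in the 4 conditions with a fast. Night and day feeding gave no called gene at 19 months, at 6 months or in the age effect, by edgeR or by DESeq2, with 5, 14 and 11 genes at an unadjusted p under 0.05. Of all genes 0.368% were called higher and 1.11% lower with night feeding at 19 months, 0.515% and 0.491% at 6 months, and 0.0327% and 0.188% in the age effect. For none of these comparisons is the share of all genes at an unadjusted p under 0.05 given here. Leaving out CR-night-2h liver 28B gave 2 calls at 19 months and 4 in the age effect, and leaving out CR-day-2h liver 20A gave 2 at 6 months and 3 in the age effect.

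The 8 livers that stand apart shared part of a profile. Their Col1a1 level was 25.4 to 83.2 CPM, against group medians of 3.56 to 6.30 CPM. Col3a1 stood at 57.8 to 154 CPM, against 13.9 to 21.6 CPM, and Vim at 30.3 to 62.9 CPM, against 14.4 to 20.1 CPM. Col1a1 and Col3a1 were higher in each of the 8 livers than in any other liver of its group, whereas Lrat, at 11.5 to 37.0 CPM against 19.3 to 23.97 CPM, lay on both sides of its group medians. Other lists moved in these livers too. The cholangiocyte list lay 0.31 to 3.11 log2 above the group medians, the Kupffer and macrophage list 0.63 to 1.30 above, and the hepatocyte list lower in all 8 (median -0.45). The portal fibroblast list had a median deviation of 1.11 (7 of 8 livers above 0), the mesothelial list of 1.002 (8 of 8), the matrix proteases of 0.90 (8 of 8) and the stellate cell list of 0.24 (5 of 8). The 6-month CR-day-12h liver 40B differed from the rest. It had the lowest value of the cholangiocyte (0.31), portal fibroblast (-0.49) and mesothelial (0.03) lists. Mki67, a mark of dividing cells looked up after the livers were seen, had 15.5 to 48.5 CPM, against group medians of 1.02 to 2.69 CPM. The part of these cell types in the matrix gene levels of the 8 livers was not tested. The livers were chosen by these matrix genes, so that their levels are a description.

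**Figure D4:**
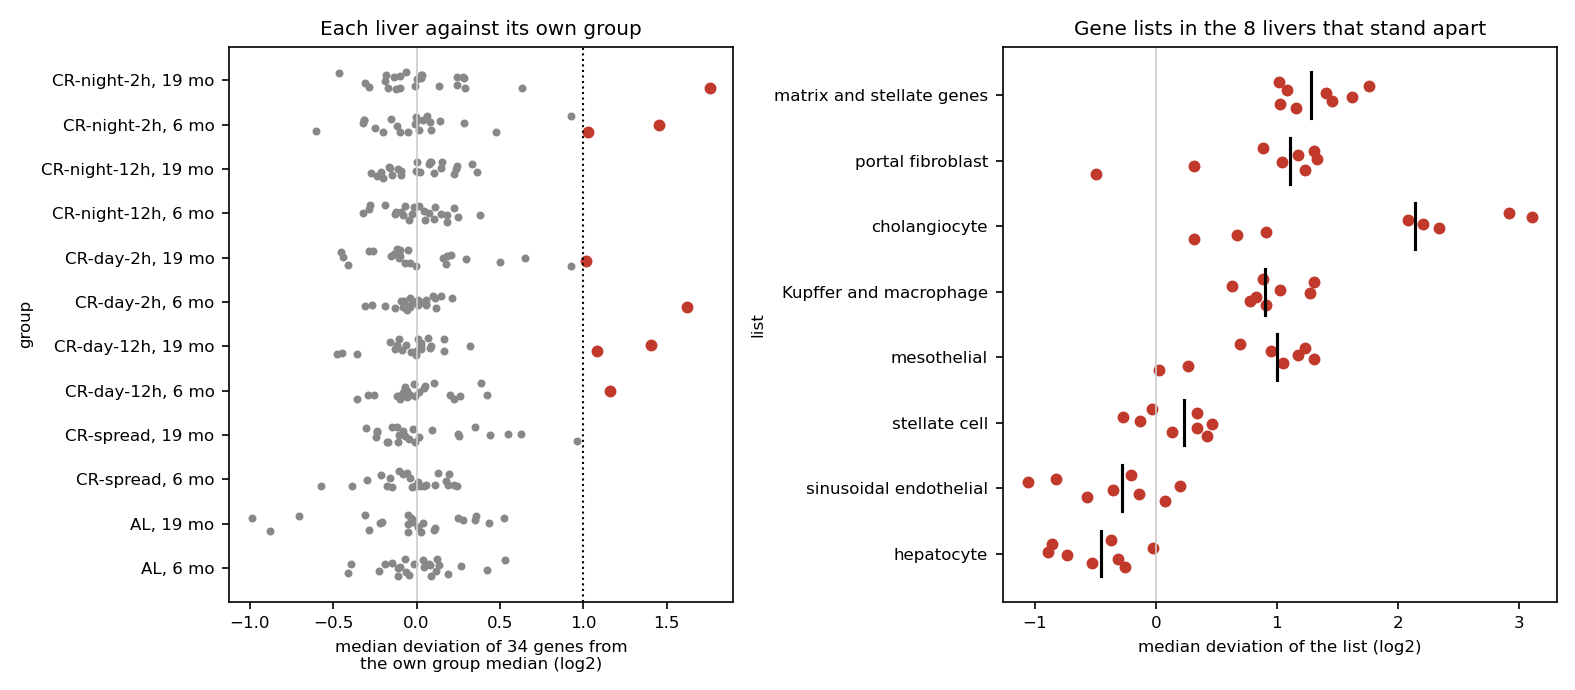
Left, the median deviation of the 34 genes from the liver's own group median (log2) for each of the 288 livers, with the 8 livers past the dotted line in red. Right, the median deviation of gene lists in these 8 livers, with bars at the median over livers; the cholangiocyte list has a median of 2.14 and the hepatocyte list of -0.45.

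Several matrix genes varied over the day. A cosine of 24 h period was fitted in each group. In AL, 10 of 34 genes cycled at 19 months and 17 at 6 months, against 34.7% and 36.3% of all genes. In CR-night-2h the counts were 7 and 7 (all genes 29.6% and 28.2%), in CR-night-12h 11 and 15 (26.7% and 37.5%), in CR-day-2h 9 and 5 (19.2% and 27.1%), in CR-day-12h 2 and 15 (21.8% and 41.6%) and in CR-spread 1 and 13 (13.6% and 19.4%), at 19 and 6 months. The shares of the matrix genes lay both above and below those of all genes. Without the livers that stand apart the count in CR-day-2h at 19 months was 3 and that in CR-day-12h at 19 months 5. Of all 12228 genes 1949 and 2453 cycled in these groups without those livers. With the A or the B livers alone, 0 to 12 matrix genes cycled in a group, against 125 to 3619 of all 12228 genes.

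Both collagen IV genes and Pdgfrb peaked early in the cycle in AL and night-fed livers, and were high early in CR-spread livers at 6 months too. Each collagen IV gene was called in 7 of the 12 groups, which include a CR-spread group. In CR-spread at 6 months the mean of Col4a1 was 28.1 CPM at hour 4 and 12.5 CPM at hour 16, and that of Col4a2 20.8 and 9.27 CPM. Col4a1 cycled 1.82-fold with a peak at hour 3.7 in 19-month and 2.36-fold with a peak at hour 1.8 in 6-month AL livers, and Col4a2 2.23-fold with a peak at hour 4.4 and 2.58-fold with a peak at hour 3.3. In CR-night-2h livers Col4a1 cycled 2.602-fold with a peak at hour 2.5 at 19 months and 1.98-fold with a peak at hour 2.7 at 6 months, and without the livers that stand apart 1.86-fold with a peak at hour 1.6 at 19 months and 1.59-fold with a peak at hour 2.0 at 6 months. Without them Col4a2 was no longer called in CR-night-2h at 19 months (adjusted p = 0.058, against 0.014 with them). In the day-fed groups neither collagen IV gene cycled at any age (adjusted p between 0.054 and 0.99). Pdgfrb was called at 6 months under every condition, with peaks at hour 2.0 in CR-night-2h, 1.5 in CR-night-12h, 1.4 in CR-spread and 2.2 in AL, but at hour 20.1 in CR-day-2h and 18.6 in CR-day-12h. Without the livers that stand apart it missed the threshold in CR-night-2h at 6 months (adjusted p = 0.057, against 0.025). Differences in peak time between groups were not tested.

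Timp3 and Col15a1 kept other hours. Timp3 cycled at 6 months in all 6 conditions, with peaks at hour 13.8 in CR-night-2h, 13.8 in CR-night-12h, 15.0 in CR-day-2h, 13.2 in CR-day-12h, 13.9 in CR-spread and 15.3 in AL. Col15a1 cycled 2.47-fold with a peak at hour 19.0 in 19-month and 2.67-fold with a peak at hour 19.8 in 6-month CR-night-2h livers, and 3.56-fold with a peak at hour 6.0 in 19-month and 5.12-fold with a peak at hour 7.2 in 6-month CR-day-2h livers. In AL it was not called at either age (adjusted p = 0.71 at 19 months and 0.11 at 6 months). Of the contractile genes, Acta2 cycled 3.04-fold with a peak at hour 13.4 in CR-day-12h and 2.78-fold with a peak at hour 12.1 in CR-day-2h at 19 months. Livers that stand apart fall at hour 12 in both groups, and without them Acta2 cycled 3.60-fold with a peak at hour 13.2 in CR-day-12h and 2.68-fold with a peak at hour 12.1 in CR-day-2h. The Timp3 calls at 6 months and the Col15a1 calls named here held without those livers too, whereas Timp3, not called at 19 months in CR-night-2h and CR-day-12h (adjusted p = 0.12 and 0.47), was called there without them (adjusted p = 0.0043 and 0.0097).

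**Figure D5:**
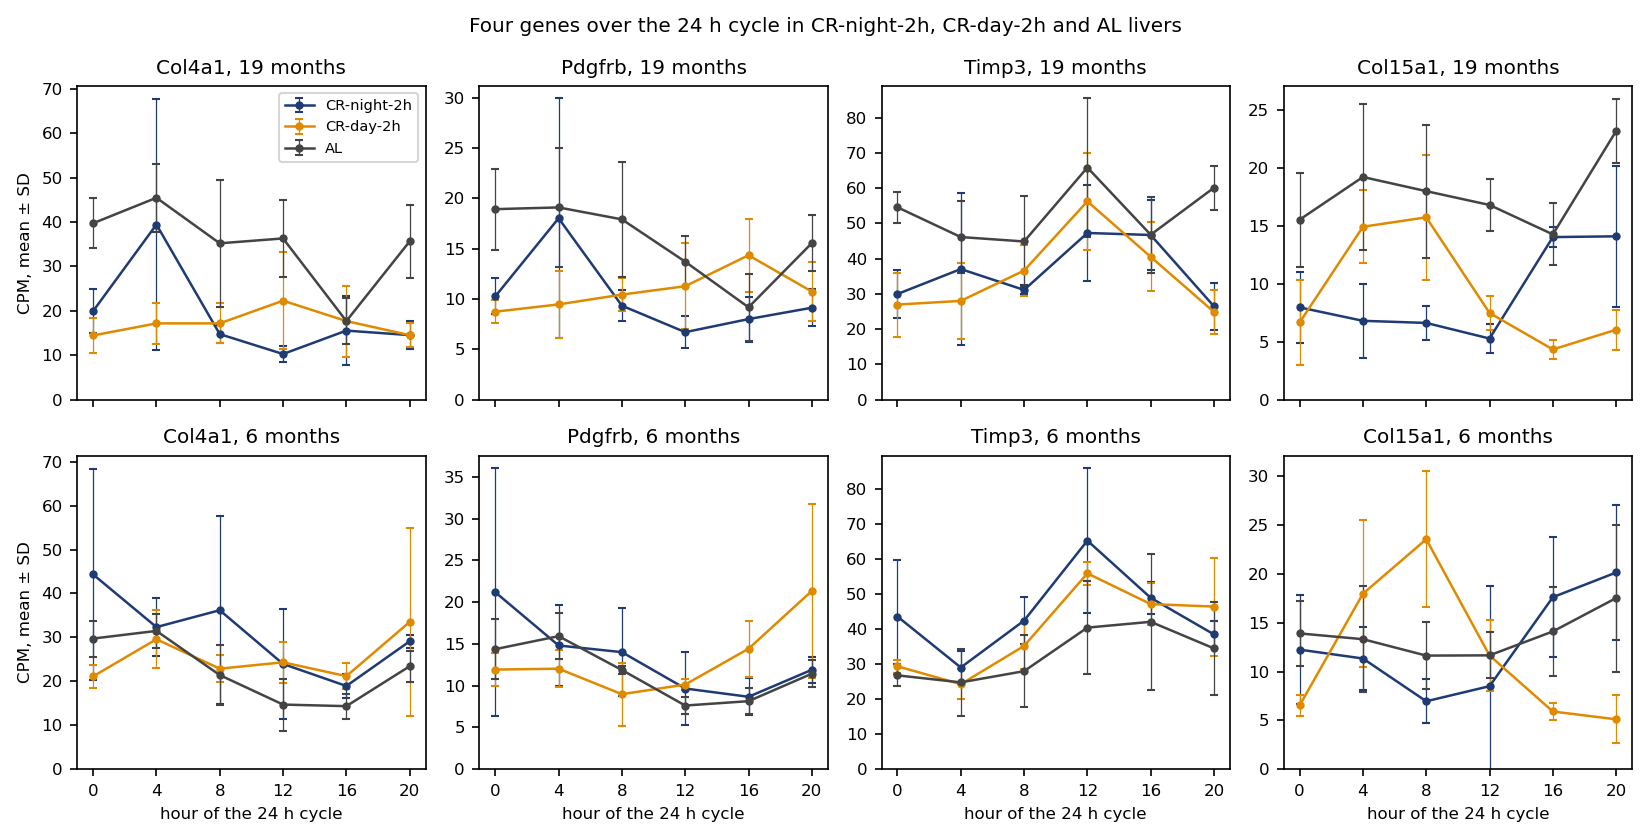
CPM (mean ± SD of the 4 livers per hour of the 24 h cycle) of Col4a1, Pdgfrb, Timp3 and Col15a1 in CR-night-2h (blue), CR-day-2h (orange) and AL (grey) livers at 19 months (top) and 6 months (bottom). At 6 months Col15a1 peaks near hour 19.8 in CR-night-2h and hour 7.2 in CR-day-2h, and Timp3 near hour 13.8 in CR-night-2h and hour 15.0 in CR-day-2h.

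Between livers of a single AL group some of these genes varied together. Each of 5 pairs was taken at both ages, 10 relations in all, with permutation tests of 100000 resamples. Col1a1 and Col3a1 correlated across the 24 livers with Pearson's r = 0.96 and Spearman's rho = 0.89 at 19 months and r = 0.92 and rho = 0.92 at 6 months. For Col4a1 and Col4a2, r was 0.95 at 19 months and 0.93 at 6 months, with rho = 0.93 and 0.90. The permutation p of each of these was 1e-05, the smallest that the resamples can give (adjusted p = 2.5e-05). The coefficients stayed at 0.91, 0.89, 0.93 and 0.89 without the 2 livers farthest from the median of the first gene. Within the letters A and B, r for Col1a1 and Col3a1 was 0.92 and 0.97 at 19 months and 0.96 and 0.63 at 6 months, and for Col4a1 and Col4a2 0.95 and 0.95 at 19 months and 0.90 and 0.94 at 6 months.

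Col1a1 and Timp1 correlated at 19 months (r = 0.74, permutation p = 2.0e-05, adjusted p = 4.0e-05; rho = 0.73, permutation p = 1.0e-04, adjusted p = 2.0e-04), where r was 0.82 and 0.79 within the letters and 0.77 without the 2 farthest livers. At 6 months, with few Timp1 reads, r was 0.26 (permutation p = 0.21, adjusted p = 0.23) and rho 0.23 (permutation p = 0.28, adjusted p = 0.31). Acta2 and Tagln correlated with r = 0.57 and rho = 0.51 at 19 months (permutation p = 0.0036 and 0.011, adjusted p = 0.0053 and 0.016) and with r = 0.57 and rho = 0.52 at 6 months (permutation p = 0.0037 and 0.0099, adjusted p = 0.0053 and 0.016). It did not hold within both letters: r was 0.21 in the A and 0.70 in the B livers at 19 months and 0.77 and 0.27 at 6 months, and 0.40 and 0.45 without the 2 farthest livers. Col1a1 and Lrat had r = 0.32 (permutation p = 0.12, adjusted p = 0.15) and rho = 0.49 (permutation p = 0.016, adjusted p = 0.020) at 19 months, with 0.60 in the A and 0.05 in the B livers, so that it did not hold within both letters. At 6 months r was 0.20 (permutation p = 0.35, adjusted p = 0.35) and rho 0.16 (permutation p = 0.47, adjusted p = 0.47). The livers of a group were taken at different hours and share the scaling of their library totals.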

How the data were processed

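The authors removed adapters with cutadapt, checked reads with FastQC, aligned them to the mouse genome with STAR and assigned them to genes with featureCounts, as named in the submitters' processing notes; the sources used here give no tool versions. The deposited tables hold raw counts per gene for 288 libraries and 21869 genes, and RPKM tables of the same libraries were not used. All columns were matched to labels (0 left unmatched), and no libraries held identical values.

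Counts were scaled by TMM and tested with the quasi-likelihood method of edgeR 4.0.16 under R 4.3.3, in a model that gave each of the 12 groups a mean of its own. filterByExpr kept 12228 genes. Genes were called at a Benjamini-Hochberg adjusted p under 0.05 and a fold of at least 1.5. Rhythms were tested with a cosine and a sine of 24 h period in each group (adjusted p under 0.05). Log2 CPM used an offset of 0.5. The scripts were tested on simulated data. Deepest and shallowest libraries held 18706281 and 2796688 counts; at the shallowest, 1 CPM corresponds to few reads. Alternatives were DESeq2 1.42.0, relative log expression factors, no filter, limma 3.58.1 for rhythms, thinned counts, a replicate block, each collection day, each letter left out and, chosen after seeing the data, the 8 livers left out. The letters A and B do not mark pairs of mice. Labels do not say which samples were handled together, so that p-values measure the spread between these livers.

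All 36 genes are accounted for. In each role the 2 genes with the smallest p for age in AL, and every gene with a called difference in age effect, were given with their levels. Of other lists the 2 genes with the smallest p could be named. The genes and lists were chosen with earlier results of these data known. Promoters came from RefSeq (GRCm38.p6) and exon lengths from GENCODE M21.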

Additional observations from a re-analysis of the deposited data

Results flagged for a closer look

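Age effects under restriction and under ad libitum feeding differed by a test of the difference itself for 11 genes in CR-spread, 12 in CR-day-12h, 18 in CR-day-2h, 22 in CR-night-12h and 28 in CR-night-2h, all lower than in AL (edgeR, adjusted p under 0.05 and a fold of at least 1.5), against 8.01%, 5.24%, 7.84%, 7.94% and 12.0% of all genes called lower. With hours 0 to 20 alone the count in CR-day-12h was 1, and with hours 24 to 44 alone that in CR-day-2h was 1. The age effect was also lower for 2 genes, Col12a1 and Tagln, in the CR conditions with a fast than in CR-spread.

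Among the genes given with full values, the difference in age effect between CR-night-2h and AL was -1.46 log2 for Col1a2, -1.51 for Col3a1, -1.32 for Col4a1 and -0.75 for Lamb1. It was -1.15 for Col6a1 and -1.68 for Col6a3, -0.75 for Dcn and -0.96 for Bgn, -1.22 for Fbn1 and -1.34 for Loxl1. The inhibitors Timp2 and Timp3 stood at -0.76 and -0.995. Vim and Tagln stood at -0.69 and -0.79, Pdgfra and Pdgfrb at -0.93 and -0.82, and Lrat at -0.78. Groups of 24 livers were too large for the test of single outlying samples used here.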

How the results depend on the processing

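The count of 23 genes higher with age in AL was within 1.5 times of itself under every alternative run. With the replicate block of time point and letter, CR-day-12h had 0 genes changed with age, CR-night-12h 5, and CR-night-2h minus AL at 6 months 3; no other count moved by over 1.5 times. Same-numbered livers were not shown to be paired (the lowest correlation of their deviations was -0.213, and between 15 and 22 of 24 pairs per comparison were over 0.1).

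Hours 0 to 20 alone gave 4 genes with age in CR-spread and 5 in CR-day-12h, 10 in CR-day-12h minus AL at 19 months, 1 in CR-day-12h and 5 in CR-day-2h minus AL at 6 months, a lower age effect than in AL for 6 in CR-spread and 1 in CR-day-12h, 1 for a fast against CR-spread and 1 for night against day at 19 months. Hours 24 to 44 alone gave 1 gene with age in CR-spread, 2 in CR-day-12h, 0 in CR-day-2h and 1 in CR-night-2h; 9 in CR-night-2h minus AL at 19 months; 1, 1, 0 and 1 in CR-spread, CR-day-12h, CR-night-12h and CR-night-2h minus AL at 6 months; differences in age effect from AL in 7 genes for CR-spread, 19 for CR-day-12h, 1 for CR-day-2h, 13 for CR-night-12h and 17 for CR-night-2h; and 0 for a fast against CR-spread, both at 6 months and in the age effect. Lum, age, CR-day-12h reversed to -0.050 in those hours. The cause was not tested. Each set of hours holds fewer livers, and the shares of all genes called in it are not given here.

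At 6 months, a fast against CR-spread gave 3 genes by DESeq2, 2 with relative log expression factors, 2 with thinned counts and 0 without the 8 livers that stand apart. Thinned counts gave 0 genes with age in CR-day-12h and 1 in CR-day-2h minus AL at 6 months. No filter gave 1 gene in the age effect of a fast. Without the 8 livers, CR-day-2h and CR-night-2h minus AL at 6 months gave 1 each, the difference in age effect 21 for CR-day-12h, a fast 2 at 19 months and 5 in the age effect, and rhythms 5 in CR-day-12h and 3 in CR-day-2h at 19 months.

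Leaving out a letter or a single one of these livers gave 2 to 7 genes with age in CR-spread, 0 to 3 in CR-day-12h, 2 to 4 in CR-day-2h, 1 to 4 in CR-night-12h and 2 to 11 in CR-night-2h. It gave 4 to 22 in CR-spread, 4 to 24 in CR-day-12h and 3 to 25 in CR-night-2h minus AL at 19 months, and 3 to 5 in CR-spread, 2 to 4 in CR-day-12h, 0 to 1 in CR-day-2h, 1 to 4 in CR-night-12h and 2 to 10 in CR-night-2h minus AL at 6 months. Differences in age effect from AL ran from 5 to 19 in CR-day-12h, 9 to 19 in CR-day-2h, 12 to 22 in CR-night-12h and 16 to 30 in CR-night-2h. A fast gave 0 to 2 at 6 months and 0 to 4 in the age effect, and night against day 0 to 2 at 19 months, 0 to 2 at 6 months and 0 to 4 in the age effect. Rhythms ran from 0 to 5 in AL at 19 months and 8 to 10 at 6 months, 0 to 0 and 0 to 12 in CR-spread, 0 to 2 and 4 to 9 in CR-day-12h, 1 to 2 and 2 to 2 in CR-day-2h, 1 to 4 and 5 to 7 in CR-night-12h, and 0 to 4 and 2 to 3 in CR-night-2h, at 19 and 6 months. A single letter leaves 12 livers per group, and of all 12228 genes 125 to 3619 then cycled in a group. For the age and feeding comparisons the shares of all genes called under these alternatives are not given here. At these depths Timp1 and Lox fell below the filter on low counts.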
